A study of Mus musculus with 5 samples.

Results

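The 43 genes described here encode the core of the bone morphogenetic protein (BMP) and transforming growth factor beta (TGF-beta) pathway, and they were taken as a named list from the 21938 protein-coding genes of the mouse annotation. By role they were 12 receptors, 8 Smads, 11 ligands and 12 antagonists and modulators. The measurement was chromatin immunoprecipitation with sequencing (ChIP-seq) of Gfi1, a zinc finger repressor, and of Lsd1, a histone demethylase that Gfi1 recruits, in MG tumors. MG tumors are a mouse model of medulloblastoma, a cerebellar tumor. To make them, Prominin1+ lineage-negative stem cells from the cerebella of C57BL/6 pups at postnatal day 5 to 7 received retroviruses carrying a point-mutant Myc and Gfi1 and were transplanted into the cerebella of immunodeficient NSG mice. All 4 libraries therefore carried the same 2 transgenes, and Gfi1 was expressed from a retrovirus. Each factor was precipitated from the same 2 tumors, tumor 39 (replicate 1) and tumor 41 (replicate 2). The sample list also holds 1 input control, from pooled MGB (Myc and Gfi1b) tumors, whose values were not analysed here. No ChIP library from a tumor without Gfi1 was among the samples, so the peaks show where the antibodies enriched chromatin and not how binding changed. Peak positions carry no cell type markers of expression, so the labelled tissue could not be checked in these lists.

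BMPs and TGF-beta ligands are secreted dimers that join type I and type II serine-threonine kinase receptors. The receptors phosphorylate receptor-regulated Smads, which bind Smad4 and enter the nucleus. Smad6 and Smad7 oppose the signal from inside the cell, and Noggin, Chordin, Follistatin and Gremlin capture ligands outside it. In the developing cerebellum BMPs are known to restrain the proliferation of granule neuron progenitors.

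A gene was counted as having a promoter peak when a peak came within 1000 bp of any of its annotated transcription start sites (TSSs), of which the 43 genes had 163. The deposited lists held 36836 (Gfi1) and 30367 (Lsd1) peaks in tumor 39, and 25078 (Gfi1) and 33213 (Lsd1) in tumor 41. Each peak carries a score of the authors whose definition is not given in the sources used here, so peaks were compared by the percentile of their score within their own list. The percentile is the share of peaks in that list that scored lower, with peaks of equal score counted at the middle of their ranks. Many peaks shared a score of 3100, namely 805 (Gfi1) and 113 (Lsd1) in tumor 39 and 12 (Gfi1) and 419 (Lsd1) in tumor 41. In the Gfi1 list of tumor 39 these peaks took the percentile 98.6, while 97.5% of the list scored lower. They include those of Acvr2b, Smad3, Smad6, Smad7, Bmp4 and Tgif2, and the Smad6 peak also had this score in both Lsd1 lists. The lists give no read depth and no precision for a single peak.

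The promoters of 6 genes are given first as examples. The windows run from 270 bases before the TSS to 30 bases from it, in the mm10 build and in the direction of transcription, and were read from the RefSeq GRCm38 genome. Acvr2b, Smad6, Bmp4 and Tgif2 had the highest mean percentile of their role groups, Bmpr1a is a receptor that the study followed, and Bmp5 had no peak and the fewest CpG dinucleotides of the genes without one. Capitals mark CAGAC, the Smad-binding element, or its complement GTCTG, and CACGTG, the E-box bound by Myc.
Acvr2b promoter, chr9:119401848-119402147, plus strand: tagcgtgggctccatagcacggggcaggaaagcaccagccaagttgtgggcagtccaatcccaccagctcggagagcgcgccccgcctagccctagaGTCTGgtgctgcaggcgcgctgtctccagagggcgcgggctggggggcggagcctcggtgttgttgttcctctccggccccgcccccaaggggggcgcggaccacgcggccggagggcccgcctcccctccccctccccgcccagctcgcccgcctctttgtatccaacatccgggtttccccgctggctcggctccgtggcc
Smad6 promoter, chr9:64022030-64022329, minus strand: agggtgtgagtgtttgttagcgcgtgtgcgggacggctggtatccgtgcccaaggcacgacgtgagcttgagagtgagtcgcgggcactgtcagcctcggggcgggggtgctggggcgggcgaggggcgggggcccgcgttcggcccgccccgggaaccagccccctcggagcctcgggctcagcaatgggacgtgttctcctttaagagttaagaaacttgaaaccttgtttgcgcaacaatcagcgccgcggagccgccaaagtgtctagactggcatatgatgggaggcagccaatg
Bmp4 promoter, chr14:46390640-46390939, minus strand: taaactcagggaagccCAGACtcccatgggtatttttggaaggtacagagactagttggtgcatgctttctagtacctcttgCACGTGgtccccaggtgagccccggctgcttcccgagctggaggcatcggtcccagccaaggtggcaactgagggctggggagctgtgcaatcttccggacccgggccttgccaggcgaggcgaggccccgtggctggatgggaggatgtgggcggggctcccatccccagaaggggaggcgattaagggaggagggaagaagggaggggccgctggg
Tgif2 promoter, chr2:156839737-156840036, plus strand: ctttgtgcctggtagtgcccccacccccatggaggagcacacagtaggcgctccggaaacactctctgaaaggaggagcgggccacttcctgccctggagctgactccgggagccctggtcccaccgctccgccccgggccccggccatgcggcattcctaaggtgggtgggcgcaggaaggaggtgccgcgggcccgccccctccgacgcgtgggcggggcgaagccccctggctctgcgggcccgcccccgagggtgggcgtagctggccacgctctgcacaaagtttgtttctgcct
Bmpr1a promoter, chr14:34503312-34503611, minus strand: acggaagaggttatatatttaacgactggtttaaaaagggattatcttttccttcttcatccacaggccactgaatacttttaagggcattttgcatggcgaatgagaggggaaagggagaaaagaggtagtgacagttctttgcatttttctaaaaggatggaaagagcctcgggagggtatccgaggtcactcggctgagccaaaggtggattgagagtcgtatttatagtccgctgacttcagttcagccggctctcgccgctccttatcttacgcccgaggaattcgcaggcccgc
Bmp5 promoter, chr9:75775094-75775393, plus strand: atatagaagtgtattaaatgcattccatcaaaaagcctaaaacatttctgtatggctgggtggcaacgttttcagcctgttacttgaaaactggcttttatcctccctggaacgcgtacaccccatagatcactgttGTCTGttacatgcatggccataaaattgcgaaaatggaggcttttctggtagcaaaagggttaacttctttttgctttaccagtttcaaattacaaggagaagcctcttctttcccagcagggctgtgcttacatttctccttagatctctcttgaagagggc
The first 5 windows lay whole under peaks in all 4 libraries, and the Bmp5 window lay under none. The last 30 bases of each window are transcribed, and part of the Tgif2 window is also exon of Gm14230, a long noncoding RNA.

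Most of the pathway was occupied. A promoter peak was found in all 4 libraries at 34 of the 43 genes, in some libraries at 5 and in none at 4. Over all protein-coding genes the shares were 53.1% in all 4, 13.2% in some and 33.6% in none. In tumor 39, Gfi1 had a promoter peak at 39 genes (90.7%, against 65% of all protein-coding genes) and Lsd1 at 36 (83.7%, against 58.5%). In tumor 41, Gfi1 had one at 34 (79.1%, against 54.3%) and Lsd1 at 37 (86.0%, against 61.7%). The share exceeded that of all genes in each library, and CpG content, which differed as well, is set beside it further on. Gfi1 peaks were found in both tumors at 34 genes (53.9% of all genes) and Lsd1 peaks at 36 (57.7%).

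The mean share of the 43 genes with a peak was 84.9% ± 8.22 (SD, n = 2) for Gfi1 and 84.9% ± 1.64 (SD, n = 2) for Lsd1, a difference of 0 percentage points. A two-sided exact permutation test over the 4 libraries gave p = 1, and the smallest p it can give is 0.333, so this test could not show a difference between the factors. The score percentiles were above those of all genes, by a measure that partly restates the share with a peak. With genes without a peak set to 0, the median of the mean percentile over the 4 libraries was 74.3 for the 43 genes and 51.8 for all protein-coding genes. The percentiles were not set against those of genes with CpG-rich promoters.

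**Figure D1:**
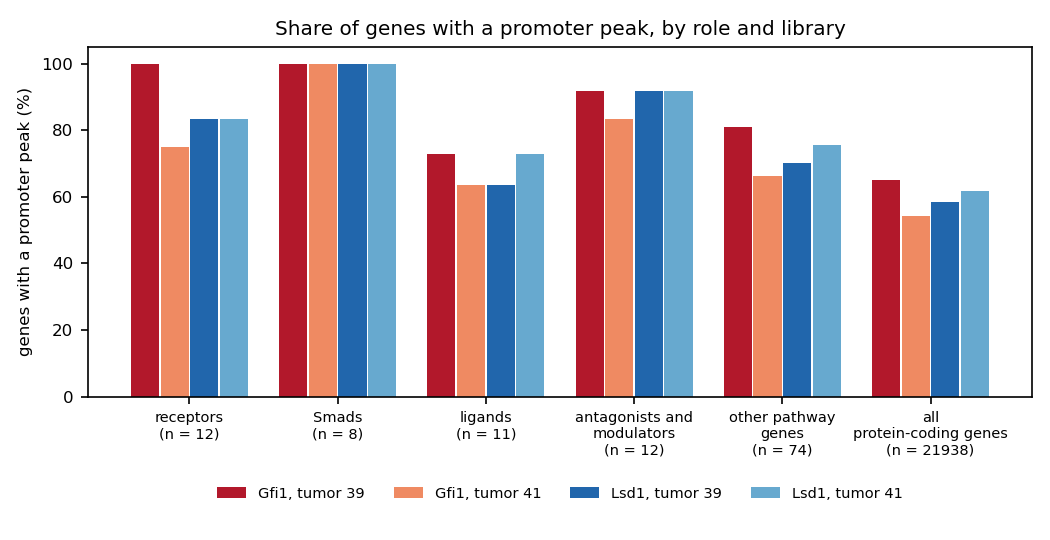
Share of genes with a promoter peak (vertical axis, percent) for each role group, for 74 other genes of the pathway and for all protein-coding genes. Each bar is 1 library, so no error bar is drawn. The 8 Smads reached 100% in every library, and the ligands ranged from 63.6% to 72.7%.

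Among the receptors, 9 of 12 had a promoter peak in all 4 libraries, and the other 3 are Acvr1c, Acvrl1 and Tgfbr2. Acvr2b, a type II activin receptor, was highest, with percentiles of 98.6 (Gfi1) and 89.3 (Lsd1) in tumor 39 and 94.7 (Gfi1) and 96.7 (Lsd1) in tumor 41. All of these lay within the upper 20% of their lists. The Gfi1 value in tumor 41 belongs to a peak that starts 185 bp downstream of the main TSS, and the peak over that TSS stood at 59.7. Tgfbr3, the co-receptor betaglycan, stood close to it, with Gfi1 at 97.4 (tumor 39) and 91.9 (tumor 41) and Lsd1 at 91.9 and 94.8. Bmpr1a, a type I receptor for BMPs, stood at 95.7 (Gfi1) and 85.6 (Lsd1) in tumor 39 and at 81.0 (Gfi1) and 86.8 (Lsd1) in tumor 41. The highest Bmpr1a peak was thus in the upper 20% in every library, while its Gfi1 values in the 2 tumors lay on either side of its Lsd1 values.

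The type II receptors Bmpr2 and Acvr2a had mean percentiles of 84.6 and 85.7, and Tgfbr1, the type I receptor for TGF-beta, had 83.6. Acvr1, a type I receptor for BMPs also known as Alk2, was much lower than Bmpr1a, with Gfi1 at 55.8 (tumor 39) and 18.2 (tumor 41) and Lsd1 at 33.2 and 51.5. Bmpr1b and Acvr1b were intermediate, with means of 65.2 and 64.7.

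The 3 receptors with partial occupancy differed in pattern. Acvrl1 (Alk1), a type I receptor of endothelial cells, had a promoter peak in the Gfi1 library of tumor 39 alone, at the 54.1 percentile. In the other libraries its nearest peak lay 2831 bp (Gfi1, tumor 41), 4801 bp (Lsd1, tumor 39) and 4824 bp (Lsd1, tumor 41) from a TSS, and 2 peaks lay inside the gene over 1000 bp from any TSS in every library. Tgfbr2, the type II receptor for TGF-beta, also had a promoter peak in the Gfi1 library of tumor 39 alone, at 33.7, and its nearest peaks in the other 3 libraries were 863607 to 863713 bp away. Acvr1c (Alk7) had peaks at 40.2 (Gfi1) and 18.8 (Lsd1) in tumor 39, and in tumor 41 no Gfi1 peak and an Lsd1 peak at 5.6. All of these partial peaks ranked below the median or little above it, and in each case the Gfi1 list of tumor 41, the shortest of the 4, lacked one.

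All 8 Smads had a promoter peak in all 4 libraries. The inhibitory Smad6 had the highest mean percentile of the 43 genes, with Gfi1 at 98.6 (tumor 39) and 99.7 (tumor 41) and Lsd1 at 99.7 and 99.2. Its mean was 99.3 and that of Tgif2 was 99.2, and their order rests on how tied scores were ranked. The Smad6 peaks were also wide, from 7419 to 9807 bp. The median width of the highest promoter peak of the 43 genes in tumor 39 was 2486 bp (Gfi1) and 2889 bp (Lsd1). Smad7, the other inhibitory Smad, stood at 98.6 (Gfi1) and 97.8 (Lsd1) in tumor 39, but in tumor 41 at 74.0 (Gfi1) and 98.3 (Lsd1).

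Of the receptor-regulated Smads, Smad3, which acts downstream of TGF-beta and activin, had Gfi1 at 98.6 (tumor 39) and 87.7 (tumor 41) and Lsd1 at 96.2 and 96.0. Smad2, of the same branch, had a mean of 74.3. The 3 Smads of the BMP branch were lower, with means of 67.9 for Smad5, 54.3 for Smad1 and 53.1 for Smad9. Their Gfi1 percentiles in tumor 41 were 43.3 for Smad5, 25.9 for Smad1 and 33.0 for Smad9. None of the 3 was in the upper 20% in all 4 libraries, and neither was Smad2 or Smad7. Over all protein-coding genes 19.9% were. Smad4, the partner shared by both branches, showed little spread in its highest peaks, with Gfi1 at 85.6 (tumor 39) and 82.2 (tumor 41) and Lsd1 at 80.4 and 83.5. The Gfi1 value in tumor 41 belongs to a peak that starts 383 bp downstream of the main TSS. The peak over that TSS stood at 76.4. The downstream peaks of Smad4 ranged more widely, from 54.0 (Lsd1, tumor 39) to 83.3 (Gfi1, tumor 39). The 4 highest values of Smad4 span fewer points than those of Bmpr1a.

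The ligands held 3 of the 4 genes without any promoter peak. Bmp4 was the highest of the ligands, with Gfi1 at 98.6 (tumor 39) and 92.7 (tumor 41) and Lsd1 at 97.7 and 99.8. In the Gfi1 list of tumor 41 the value belongs to a peak from 741 to 5838 bp downstream of the main TSS, and the peak over that TSS stood at 25.2. The region under its promoter peaks in all 4 libraries measured 5915 bp. Tgfb1 followed, with Gfi1 at 99.9 (tumor 39) and 88.8 (tumor 41) and Lsd1 at 98.1 and 99.8. Tgfb3 had a mean of 88.0 and Tgfb2 of 67.6, so all 3 TGF-beta ligands were occupied in every library. Of the 5 BMPs, Bmp4 and Bmp7 were occupied in all 4 libraries, with a mean of 80.6 for Bmp7. Bmp6 had peaks in 2 libraries, at 59.5 (Gfi1, tumor 39) and 38.2 (Lsd1, tumor 41).

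Bmp2, Bmp5 and Inhba, which encodes the activin A subunit, had no promoter peak in any library. Their nearest peaks lay from 159192 to 605941 bp from the TSS for Bmp2, from 81901 to 90900 bp for Bmp5 and from 547319 to 1380674 bp for Inhba. The related Inhbb, which encodes the activin B subunit, was occupied throughout, with Gfi1 at 93.1 (tumor 39) and 52.4 (tumor 41) and Lsd1 at 94.9 and 96.4. Gdf11 had a mean of 62.1.

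**Figure D2:**
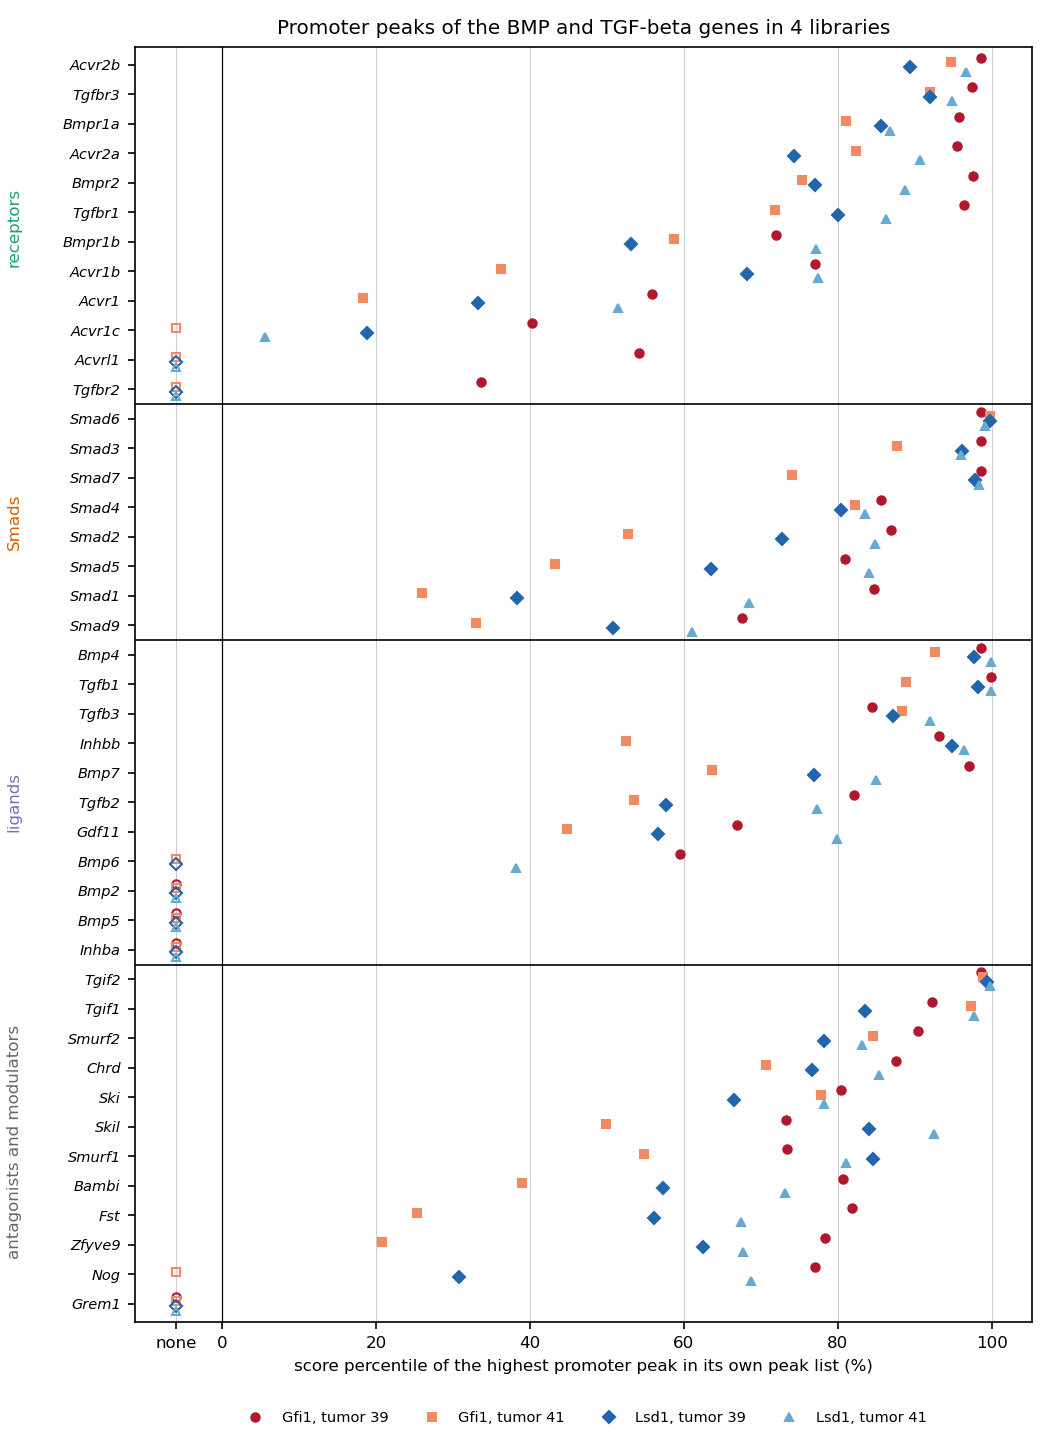
Score percentile of the highest promoter peak of each of the 43 genes within its own list (horizontal axis, percent), by role and by mean. Each point is 1 library and open points at the left stand for no promoter peak. The points of Smad6 and Tgif2 all lie above 98, and those of Bmp2, Bmp5, Inhba and Grem1 all stand at none.

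Of the 12 antagonists and modulators, 10 had a promoter peak in all 4 libraries. The 4 nuclear genes of this group are corepressors that bind Smads, and all were occupied throughout. Tgif2 had Gfi1 at 98.6 (tumor 39) and 98.9 (tumor 41) and Lsd1 at 99.3 and 99.8. Its mean was the second-highest of the 43 genes by the ranking of tied scores used here. Tgif1 had Gfi1 at 92.2 and 97.3 and Lsd1 at 83.5 and 97.7, while Ski and Skil had means of 75.7 and 74.9. Smurf2 and Smurf1, ubiquitin ligases that mark Smads and receptors for degradation, had means of 84.1 and 73.5. The pseudoreceptor Bambi had 62.5 and Zfyve9 (Sara), which presents Smads to the receptor, 57.3.

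The secreted antagonists were less uniform. Chrd (Chordin) had Gfi1 at 87.5 (tumor 39) and 70.7 (tumor 41) and Lsd1 at 76.6 and 85.3. Fst (Follistatin) also had peaks in all 4 libraries, with a mean of 57.7. Nog (Noggin) had peaks at 77.0 (Gfi1) and 30.7 (Lsd1) in tumor 39 and at 68.8 (Lsd1) in tumor 41, where the nearest Gfi1 peak was 114126 bp away. Grem1 (Gremlin) had none in any library, and its nearest peaks were 65919 to 69575 bp away.

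Gfi1 and Lsd1 peaks overlapped at most of these promoters. In tumor 39 they overlapped by at least 1 bp at 36 genes (57.7% of all protein-coding genes) and in tumor 41 at 34 (53.8%), and the same held in both tumors at 34 (53%). In tumor 39 all 36 genes with an Lsd1 promoter peak had an overlapping Gfi1 peak, as did 98.6% of all protein-coding genes with an Lsd1 promoter peak. In tumor 41 all 34 genes with a Gfi1 promoter peak had an overlapping Lsd1 peak, as did 99.1% of all such genes. Of the bases under Gfi1 promoter peaks, a median of 96.2% over 36 genes lay in Lsd1 promoter peaks in tumor 39, with the lowest value, 39.2%, at Fst. In tumor 41 the median was 99.8% over 34 genes, and the lowest was 75.4% at Smad4. In the reverse direction the medians were 89.7% in tumor 39 and 74.5% in tumor 41. Pairing each Gfi1 list with the Lsd1 list of the other tumor also gave 34 genes, so the count does not separate pairs of libraries from 1 tumor from pairs across tumors. An overlap of 1 bp does not place the factors at the same point. Centres of Gfi1 and Lsd1 peaks lay within 200 bp in both tumors at 9 genes, a count with no share over all genes beside it.

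The factor with the higher rank differed between the tumors, which was not tested since each factor had 1 library per tumor. Of the 34 genes with peaks in all 4 libraries, the Gfi1 percentile was above the Lsd1 percentile at 28 in tumor 39 (70.9% of all such genes) and at 2 in tumor 41 (29.4%). Those 2 were Smad6 and Smurf2, and the place of Smad6 rests on how tied scores were ranked. At Smad1, Gfi1 was above Lsd1 by 46.4 points in tumor 39, and the difference was -42.5 points in tumor 41. The median difference, Gfi1 minus Lsd1, was 10.5 points in tumor 39 and -16.5 in tumor 41 for the 34 genes, and 4.76 and -4.76 points for all such genes. The members thus followed the direction of the whole lists, and the Gfi1 list was the longer of the pair in tumor 39 and the shorter in tumor 41.

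At 4 genes both Lsd1 percentiles were above both Gfi1 percentiles (15.4% of all genes with peaks in all 4 libraries), and at 1 the order was the reverse (16.5%). The first were Skil, Smurf1, Inhbb and Tgif2, separated by gaps of 10.8, 7.68, 1.74 and 0.466 points. At Skil and Smurf1 both Gfi1 lists hold separate promoter peaks where both Lsd1 lists hold 1 wider peak. The ranks compared there thus belong to peaks of unlike extent. For Tgif2 the order rests on the tied score in the Gfi1 list of tumor 39. Smurf2 was the reverse, with a gap of 1.51 points. In lists cut to equal length the same 4 genes kept their order, while Ski and Smad4 joined Smurf2, so that 3 genes had both Gfi1 values above both Lsd1 values.

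**Figure D3:**
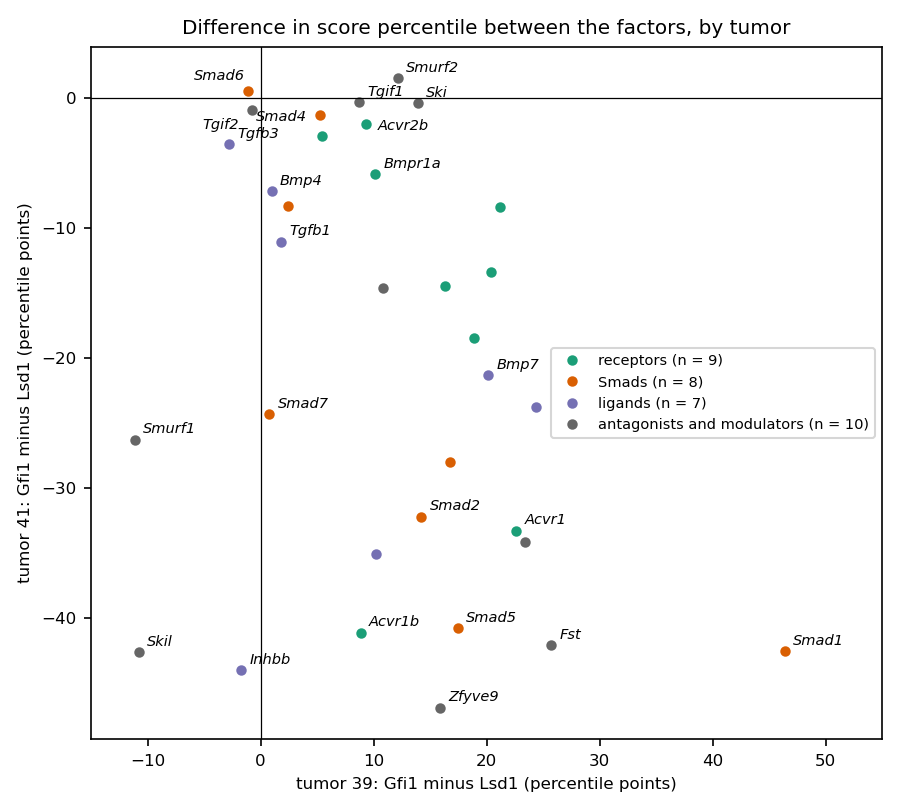
Gfi1 minus Lsd1 score percentile in tumor 39 (horizontal axis) and in tumor 41 (vertical axis), in percentile points, for the 34 genes with a promoter peak in all 4 libraries. Each point is 1 gene, coloured by role. Most points lie to the right of 0 and below 0, which are 28 genes above 0 in tumor 39 and 2 in tumor 41.

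A peak was called high-confidence when it ranked in the upper 20% of the tumor 39 list and peaks of the same rank in tumor 41 covered 50% or more of it. A high-confidence Gfi1 peak was found at the promoters of 13 genes (30.2%, against 22.9% of all protein-coding genes) and a high-confidence Lsd1 peak at 14 (32.6%, against 25.9%), with both at 10 (19.5% of all genes). The 10 were Acvr2b and Tgfbr3 among the receptors, Smad3, Smad4 and Smad6, the ligands Bmp4, Tgfb1 and Tgfb3, and the corepressors Tgif1 and Tgif2. At Smad4 the Gfi1 and Lsd1 calls rest on separate peaks that do not overlap. The Gfi1 peak lies downstream of the TSS and the Lsd1 peak lies over it. Bmpr1a, Acvr2a and Smurf2 had a high-confidence Gfi1 peak without an Lsd1 one. At Bmpr1a the highest Lsd1 peak was in the upper 20% in both tumors, at 85.6 and 86.8. In tumor 41 the Lsd1 list holds 2 peaks there, 6 bp apart, and the lower one stood at 77.9. The higher one, of 1178 bp, covers less than 50% of the 3193 bp peak of tumor 39, so the missing call rests on this split. Smad7, Inhbb, Skil and Smurf1 had a high-confidence Lsd1 peak without a Gfi1 one. Over all protein-coding genes 5030 had a high-confidence Gfi1 peak, 5681 an Lsd1 one and 4270 both, so calls for 1 factor alone were not particular to the list. Whether the listed genes favour 1 factor was not tested. The high-confidence shares were nearer to those of all genes than the shares with any promoter peak were. In single libraries the number of genes in the upper 20% was 26 (Gfi1, tumor 39), 13 (Gfi1, tumor 41), 15 (Lsd1, tumor 39) and 23 (Lsd1, tumor 41), against 36.2%, 24.6%, 28.1% and 32.2% of all genes. In all 4 libraries it was 11, against 19.9% of all genes.

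The peaks lay over the start sites themselves. Of the 146 pairs of a gene and a library with a promoter peak, 141 had a peak that covered a TSS. No share over all protein-coding genes is set beside this count, so it describes the listed genes only. Taking the nearest peak of each pair, the largest distance to a TSS was 126 bp, at Gdf11 in the Lsd1 library of tumor 39. The nearest peak that was not counted was the one at Acvrl1, 2831 bp away. The region under promoter peaks of all 4 libraries ranged from 757 bp at Acvr1 to 7962 bp at Ski, with a median of 2318 bp over 34 genes. At Ski this includes peaks at another start site inside the gene.

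At 27 of the 34 genes the main TSS itself was under peaks of all 4 libraries. The exceptions were Acvr1, Acvr1b, Gdf11, Skil, Smurf1, Zfyve9 and Fst. At several of these a pair of neighbouring peaks left a short gap near the TSS. A gap of at most 1000 bp between promoter peaks was present in some library at 17 genes, and in all 4 at Smad4, Smad7 and Ski. The counts of covered start sites and of gaps have no share over all protein-coding genes beside them. They cannot show whether such gaps are particular to the list. At Smad4 the gap was centred 234 to 283 bp downstream of the TSS and measured 216 bp (tumor 39) and 200 bp (tumor 41) in the Gfi1 lists and 32 and 135 bp in the Lsd1 lists. At Ski it was centred at -250 to -202 bp, upstream of the TSS, and measured 312 and 466 bp in the Gfi1 lists and 309 and 314 bp in the Lsd1 lists. The gaps of the 4 libraries at Smad4 and at Ski overlapped in position, while those at Smad7 lay at several places.

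**Figure D4:**
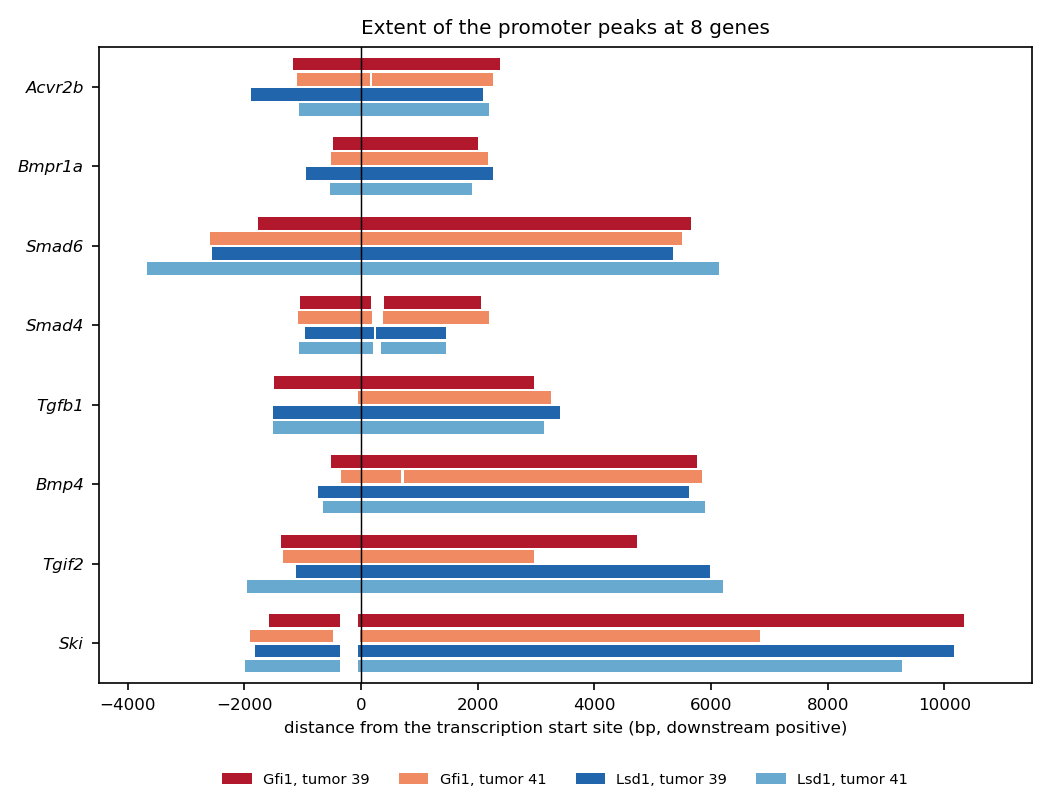
Extent of the promoter peaks of 8 genes as distance from the TSS in bp, with downstream positive, where each bar is 1 peak of 1 library. The gaps at Smad4 and Ski recur in all 4 libraries, and the peaks of Smad6 are wider than those of Bmpr1a. Peaks of Ski at another start site lie beyond the right edge.

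Further peaks lay inside some of the genes, over 1000 bp from any TSS. Such peaks were found in all 4 libraries at 14 of the 43 genes (32.6%, against 9.58% of all protein-coding genes, with no correction for gene length or for promoter occupancy). In the order Gfi1 in tumors 39 and 41 and Lsd1 in tumors 39 and 41, Tgfbr3 held 9, 12, 15 and 14 of them. Ski held 7, 9, 4 and 10, and Smad6 held 7, 7, 7 and 10. Smad3 held 9, 4, 9 and 8, Bmp7 held 10, 3, 6 and 5, and Smad7 held 7, 2, 4 and 5. Bmpr1a and Smad4 held none in any library.

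CpG-rich promoters were occupied more often than CpG-poor ones over the whole genome. CpG dinucleotides were counted within 500 bp on either side of the protein-coding TSS with the most of them, and a promoter was called CpG-rich when it had more than the genome median of 48. By this measure 39 of the 43 genes were CpG-rich, with a median of 100. Of the 39, 32 had a peak in all 4 libraries (82.1%), where 84.5% of all CpG-rich genes did, and 2 had none (2.12% of all CpG-rich genes). Set against CpG-rich genes, the share of the list was therefore not higher. These shares were compared without a test.

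The 4 CpG-poor genes were all ligands. Bmp4, with 35 CpG, and Tgfb3, with 48, had peaks in all 4 libraries, where 22.3% of all CpG-poor genes did. Inhba, with 39, and Bmp5, with 9, had none, where 64.6% of all CpG-poor genes had none. The mean percentile of Bmp4 was 97.2, taken from its highest peak in each library. The 2 CpG-rich genes without a peak were Bmp2, with 100 CpG, and Grem1, with 69.

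**Figure D5:**
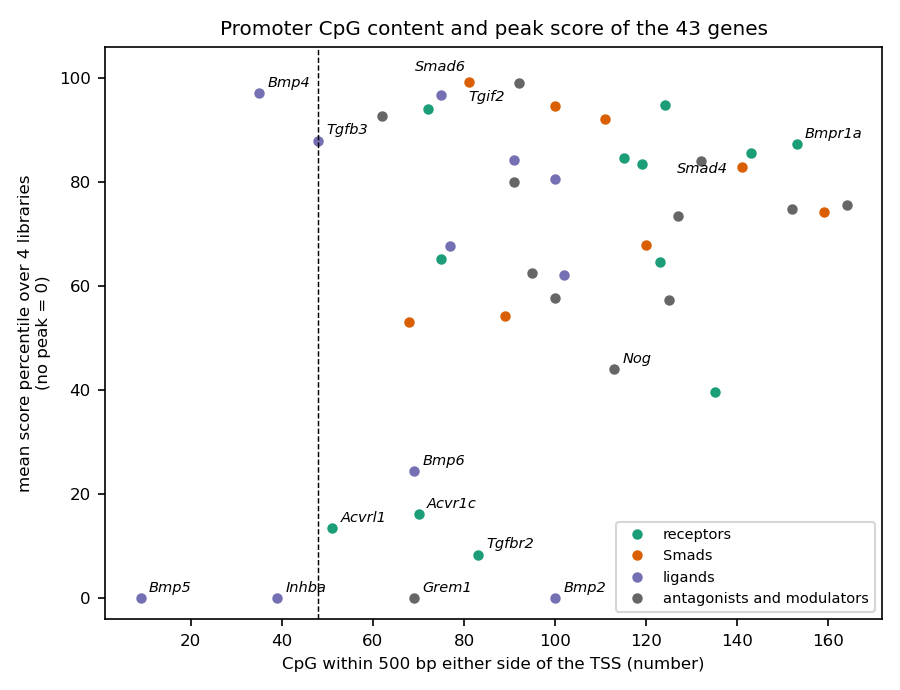
Number of CpG within 500 bp of the TSS (horizontal axis) and mean score percentile over the 4 libraries with no peak set to 0 (vertical axis), for the 43 genes by role. The dashed line is the genome median of 48 CpG. Bmp4 stands left of the line at 97.2 and Bmp2 stands at 0 with 100 CpG.

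Short motifs were counted on both strands in the same 300-base windows. These windows lie at the main TSS, which can differ from the TSS at which CpG content was counted. At Bmpr1a the GC content was 77.2% around the latter and 47.7% in the printed window. AATCAC, the core of the Gfi1 site, was present at 3 of the 43 genes (6.98%, against 10.4% of all protein-coding genes), namely Acvr1, Smad1 and Inhba. None of the 6 windows printed above holds it, and this says only that the letters are not there. CAGAC was present at 20 genes (46.5%, against 47.9%). These were 9 of the 12 antagonists and modulators, 5 of the 12 receptors, 2 of the 8 Smads and 4 of the 11 ligands. The last 3 groups were below the share of all genes. CACGTG was present at 5 (11.6%, against 7.69%), which were Bmpr2, Acvr1b, Smad2, Bmp4 and Tgfb2.

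GGCGCC, a palindrome bound by Smads of the BMP branch, was present at 16 genes (37.2%, against 13.4%). It was found at 5 of the 8 Smads, 4 of the 12 receptors, 7 of the 12 antagonists and modulators and 0 of the 11 ligands. The motif holds a CpG, and it was present at 2497 of all 10874 CpG-rich genes (23.0%) and at 16 of the 39 CpG-rich genes of the list. A match is a description of the sequence and was not tested.

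Peaks were also read at other genes of the pathway. Of 74 further ligands, antagonists, target genes and regulators, 48 had a promoter peak in all 4 libraries (64.9%, against 53.1% of all protein-coding genes), 14 in some and 12 in none. Of the 43 of them with CpG-rich promoters, 36 had a peak in all 4 (83.7%, against 84.5% of all CpG-rich genes). Rgmb, a BMP co-receptor, Id2, a classic target of BMP Smads, and Stub1, a ubiquitin ligase, had the highest mean percentiles, at 98.8, 98.8 and 98.4. Among the other Id genes, Id1 and Id3 had means of 94.8 and 97.4 and Id4 of 60.6. The 12 genes without a peak included the ligand genes Bmp10, Bmp15, Gdf2, Gdf3 and Mstn and the co-receptor gene Hjv.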

How the data were processed

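Gfi1 and Lsd1 ChIP-seq was analysed in 2 MG tumors, which gave 4 libraries. Per the paper's methods and the labels, reads were aligned with BWA 0.6.2 to mm10, duplicates were dropped, and MACS with its default settings gave peaks for each library against input. The lists deposited by the authors hold positions and a score per peak, of at least 50, whose definition is not given in the sources used here. Read depth is not in the lists. Mapped reads per library are given in the paper's reporting summary and were not used. Scores were used only as ranks within a list.

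TSSs were taken from GENCODE M21 (GRCm38), whereas the authors used M9. All steps were run on all protein-coding genes with Python 3.11.15, numpy 2.4.6 and pysam 0.24.0, and were tested on simulated data. Replicates 1 and 2 are tumors 39 and 41 by the sample descriptions, so the libraries of the 2 factors are paired by tumor. Over 11653 genes the tumor differences of Gfi1 and Lsd1 percentiles had a Pearson correlation of -0.335. The factors were compared by exact permutation over libraries.

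Genes named in the text were Bmpr1a, Smad4, the 5 with the highest mean percentile, all with partial or no occupancy and the 3 highest other pathway genes. Other members were named to describe their role group. The members, lists and rules were chosen with earlier results of these data known. The TSS used for CpG content and motifs was changed after values had been seen, as was the motif window. Window, score threshold, overlap, list length, high-confidence rule and left-out libraries were varied. Expression data were not used here.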

Additional observations from a re-analysis of the deposited data

Results flagged for a closer look

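The difference between the factors took opposite signs in the 2 tumors. The share of the 43 genes with a promoter peak was 6.98 percentage points higher for Gfi1 than for Lsd1 in tumor 39, and the difference was -6.98 points in tumor 41. Over all protein-coding genes the differences were 6.47 and -7.48 points, so the list lay close to the whole set of genes. Over the 34 genes with peaks in all 4 libraries, the median difference in score percentile, Gfi1 minus Lsd1, was 10.5 points in tumor 39 and -16.5 points in tumor 41, against 4.76 and -4.76 points for all genes with peaks in all 4 libraries. With 1 library per factor and tumor, the difference between the tumors was not tested. The Gfi1 list was longer than the Lsd1 list in tumor 39 and shorter in tumor 41. By the paper's reporting summary, the Gfi1 library had fewer mapped reads than the Lsd1 library in tumor 39 and more in tumor 41. The effect of read depth was not tested. In lists of equal length the differences in share were 6.98 and -4.65 points, and the median percentile differences were 11.0 and -11.0 points.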

How the results depend on the processing

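The counts of genes with a Gfi1 peak in both tumors, an Lsd1 peak in both tumors or overlapping peaks in both tumors stayed within 1.5 times under the TSS windows, TSS sets, midpoint rule, list length and the upper 80% and 50% of the score, at 24 to 34, 31 to 36 and 24 to 34. In the upper 20% of the score they were 13, 15 and 10. Requiring peak centres within 200 bp gave 9 overlaps. High-confidence Gfi1 and Lsd1 counts were 6 and 8 at the upper 10%, and Lsd1 was 26 at the upper 40% and 9 by peak midpoint. The counts under these altered settings have no share over all protein-coding genes beside them. Whether their changes are particular to the list therefore cannot be judged. Without 1 library the counts ranged from 34 to 39 (Gfi1), 36 to 37 (Lsd1), 34 to 36 (overlap), 13 to 26 (high-confidence Gfi1, 26 without Gfi1 in tumor 41) and 15 to 23 (high-confidence Lsd1, 23 without Lsd1 in tumor 39). Both largest values come from dropping the agreement between tumors. The difference in share between the factors ranged from -5.81 to 5.81 points without 1 library and was -6.98 points in the upper 50% of the score. With the replicate block that pairs libraries by tumor it was 0 (exact sign-flip p = 1, smallest possible 0.5), and with crossed pairing, added after seeing the data, it was also 0 with p = 1. With the TSS shared by most transcripts, or that of the APPRIS principal transcript, 30 of 37 and 31 of 37 CpG-rich genes had peaks in all 4 libraries, and the motif counts moved by at most 2. Genes with both Gfi1 percentiles above both Lsd1 percentiles rose from 1 to 3 in lists of equal length. The causes were not tested, and the lists carry no depth with which to set a limit of detection. The mapped reads that the paper reports per library were not used for this.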
